A study of Mus musculus with 22 samples.

Results

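Glucocorticoid signaling in hippocampal CA1 was followed through 9 genes, which are the corticosteroid receptors Nr3c1 and Nr3c2, the hormone-activating enzyme gene Hsd11b1, and 6 genes known to respond to glucocorticoids, Fkbp5, Sgk1, Tsc22d3, Zbtb16, Mt1 and Mt2. They were chosen by name for these known roles, with earlier results of these data known, as 9 of the 23361 genes in the expression matrix. All 9 were among the 16978 genes tested, which had a mean of at least 0.1 FPKM over all libraries. FPKM, fragments per kilobase of exon scaled to the mapped fragments of a library, is a level per transcript length, so levels of different genes may be set side by side. Each library held mRNA from the microdissected hippocampal CA1 region of 1 mouse, and all 22 mice were wild-type females of a Swiss Webster x DBA/C57BL6 F1 background. AL mice were fed ad libitum and numbered 5 at 5 months and 6 at 15 months of age. CR mice, also 5 at 5 months and 6 at 15 months, were calorie restricted from young adulthood by lowering carbohydrates, and got their daily food in the morning. The mice of a group are separate animals, and a library of microdissected tissue holds every cell type of that tissue. In such bulk samples, fewer cells of a type and less RNA per cell cannot be told apart.

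Corticosterone, the main glucocorticoid of mice, enters cells and binds a pair of nuclear receptors, of which the mineralocorticoid receptor has the higher affinity and is abundant in hippocampal neurons, whereas the glucocorticoid receptor is occupied mainly at the daily peak and under stress. Bound receptors move to the nucleus and change the transcription of target genes, some of which, such as Fkbp5, feed back on the receptor. Metallothionein genes answer to glucocorticoids and also to zinc and other metals. Corticosterone itself was not among the measurements analyzed here.

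In AL mice, 5 of the 9 genes fell between 5 and 15 months: Nr3c2, Hsd11b1, Fkbp5, Mt1 and Mt2. Over all genes tested, 20.6% were called in either direction in this comparison. In CR mice 0 of 9 passed the same test between the ages, beside 3.36% of all genes. For the interaction of age and diet 0 of 9 were called, beside 0.0% of all genes. With a score of neocortex, subiculum and CA1 neuron markers added to the fit, 0 of the 9 and 0 of all 16978 genes passed for age in AL mice. At 15 months the levels of Nr3c2, Hsd11b1 and Fkbp5 in most CR mice lay above those of AL mice. These differences did not pass the threshold over all genes. The study itself, which tested reads with Cuffdiff at its own threshold, lists Nr3c2 as upregulated in CR against AL mice at 15 months. Every CR library held less Mt2 relative to Mt1 than every AL library of the same age, in a ratio examined after the values were seen, and Mt2 shares part of its sequence with an antisense gene.

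Libraries had a median FPKM between 2.51 and 3.10 and between 18281 and 19175 genes above 0. No whole read counts could be derived from these values, so the depth behind each of them is unknown. Of 6 CA1 pyramidal neuron markers, 4 fell in AL mice between the ages, and of 7 neocortex and subiculum markers 3 rose. None of these markers was at 0 in all libraries of a group. The summed CA1 list ranged from 217 to 487 FPKM in AL mice at 5 months and from 172 to 268 at 15 months, and the neocortex and subiculum list from 62.8 to 94.7 and from 67.2 to 174. The mean log2 level of the latter list minus that of the former is called the region score below. It ran from -3.60 to -1.96 in AL mice at 5 months and from -0.91 to 1.10 at 15 months. In CR mice it ran from -3.53 to -2.76 and from -3.33 to 0.20, where the highest value belonged to CR 15 months replicate 0.

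**Figure D1:**
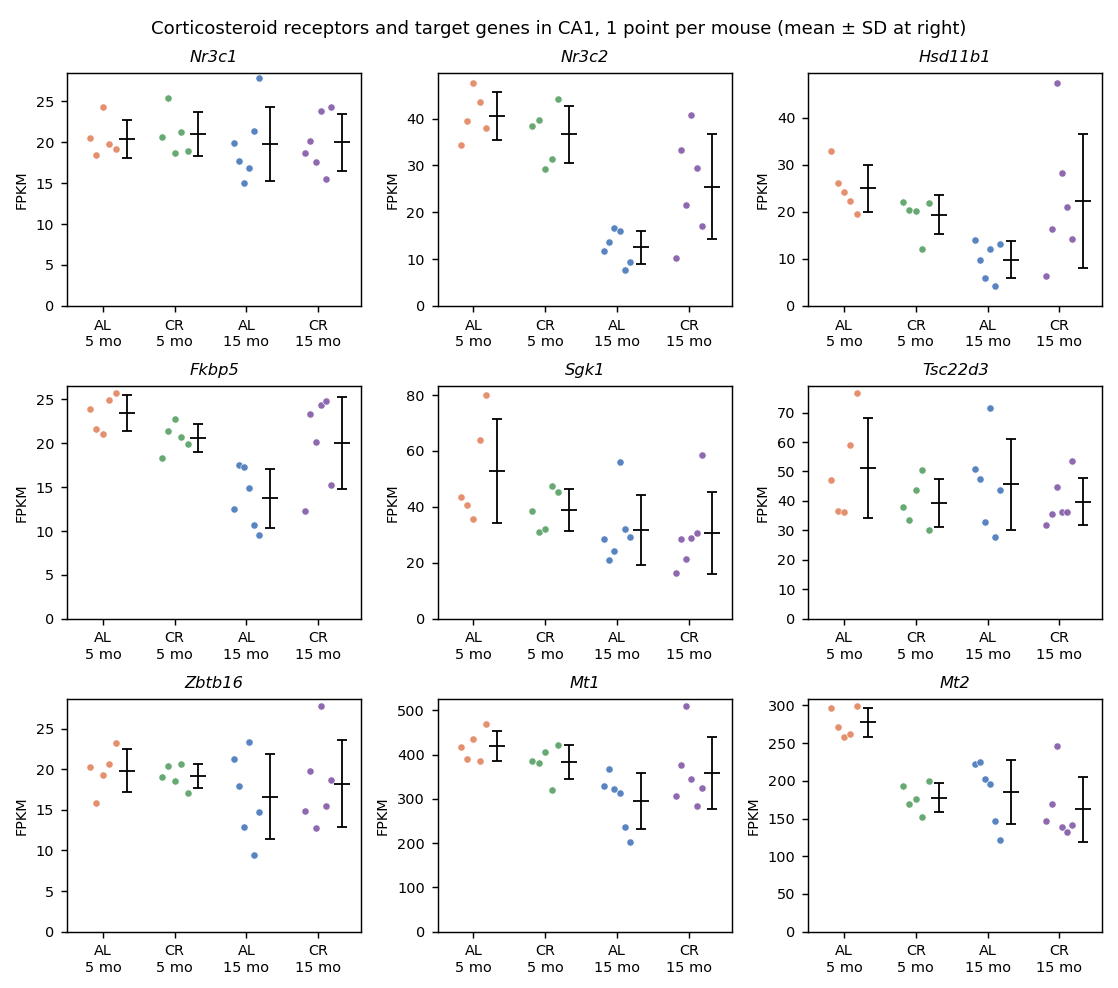
FPKM (vertical axes, from 0) of each of the 9 genes in the 22 mice, with 1 point per mouse and the mean ± SD of each group (n = 5 or 6) as a bar at its right. Nr3c2, Hsd11b1 and Fkbp5 of AL mice at 15 months sit below every AL mouse at 5 months, and Mt2 of CR mice at 5 months sits below every AL mouse of that age.

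Nr3c1 encodes the glucocorticoid receptor, and its level was similar in all 4 groups. The gene lies on chromosome 18 from 39410545 to 39519421, on the minus strand (GRCm38, GENCODE annotation). AL mice had 20.4 ± 2.28 FPKM (SD, n = 5) when younger and 19.8 ± 4.52 (SD, n = 6) when older. The CR groups had 21.0 ± 2.68 (SD, n = 5) and 20.0 ± 3.48 (SD, n = 6) FPKM. Groups overlapped in every comparison, and the fitted log2 fold changes ran from -0.08 to 0.04 with standard errors (SE) of 0.13 to 0.14. The largest of these in size was -0.08 between CR mice at 15 and 5 months (limma adjusted p = 0.809).

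Nr3c2 encodes the mineralocorticoid receptor, and of the 9 genes it fell the most in AL mice. It lies on chromosome 8 from 76899442 to 77245012, on the plus strand. In AL mice at 5 months the FPKM values were 34.3, 37.9, 39.6, 43.5 and 47.7, and at 15 months the lowest was 7.74, the median 12.7 and the highest 16.6. Every AL mouse at 15 months was thus below every AL mouse at 5 months, and the mean fell by 69.2%. The log2 fold change was -1.73 (SE 0.27), or 3.32-fold, with a limma adjusted p of 0.000415. An exact two-sided permutation test over mice gave p = 0.00216, the smallest that 5 mice against 6 allow.

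CR mice had a smaller age difference in Nr3c2 and a wider spread. At 5 months they had 29.3, 31.4, 38.4, 39.8 and 44.2 FPKM, within reach of AL mice of that age (log2 fold change -0.16, SE 0.28, limma adjusted p = 1.0). At 15 months the lowest was 10.3, the median 25.5 and the highest 40.9 FPKM. Of the 6 CR mice, 5 were above every AL mouse at 15 months, and the other one, replicate 0, was below the AL median. The log2 difference between the diets at 15 months was 0.93 (SE 0.25), with a limma adjusted p of 0.0804 over all genes and an exact permutation p of 0.0260. Without replicate 0 it was 1.16 (adjusted p = 0.0105), and without CR 15 months replicate 5 it was 1.02 (adjusted p = 0.0446). Over all genes tested, 732 and 492 passed in these fits, beside 126 with all libraries. The former fit also gives the limma values without replicate 0 below. Without CR 15 months replicate 3 the Nr3c2 difference was 0.77, in a fit where 15 of all genes passed. Over single libraries left out, its limma adjusted p ran up to 0.219. Between CR mice at 15 and 5 months Nr3c2 differed by -0.64 (SE 0.27, limma adjusted p = 0.199).

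The balance of the receptors within a library does not depend on scaling between libraries. For AL mice the ratio of Nr3c2 to Nr3c1 FPKM averaged 1.996 ± 0.206 (SD, n = 5) in the younger and 0.686 ± 0.313 (SD, n = 6) in the older group. The ratios of the ages did not overlap, with 1.68 as the lowest at 5 months and 1.11 as the highest at 15 months, and the log2 ratio fell by 1.67 (SE of the difference 0.30, exact two-sided permutation p = 0.00433; 0.0173 adjusted over 4 comparisons). CR mice had ratios of 1.76 ± 0.350 (SD, n = 5) and 1.29 ± 0.562 (SD, n = 6), which overlapped (log2 difference -0.56, exact p = 0.173). The diets differed by 0.91 on the log2 scale at 15 months (exact p = 0.0606) and by -0.20 at 5 months (exact p = 0.190). The interaction of age and diet in this ratio was estimated at 1.10, and a permutation of diet within age gave an unadjusted p = 0.0250. That permutation takes no diet difference at either age as its null, so its p does not measure the interaction alone. Without CR 15 months replicate 0 the diet difference of the log2 ratio at 15 months was 1.12, and without AL 15 months replicate 5 it was 0.73. Over single libraries left out, its exact permutation p ran from 0.0260 to 0.117. With other pseudocounts and the removal of the region score included, the lowest estimate was 0.38 and the highest exact p 0.242.

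**Figure D2:**
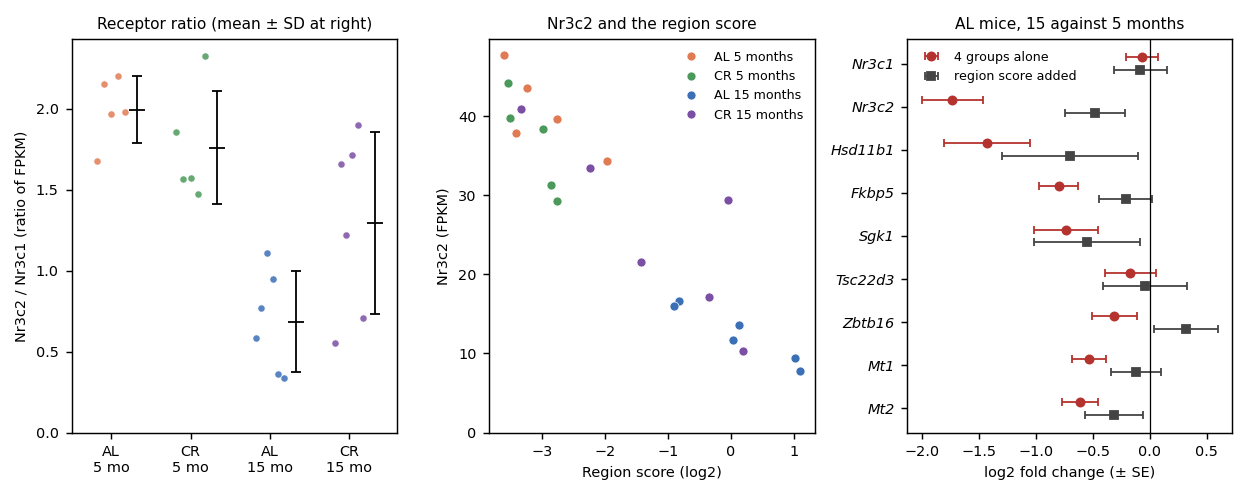
Left, ratio of Nr3c2 to Nr3c1 FPKM, 1 point per mouse with mean ± SD; middle, Nr3c2 FPKM against the region score (log2) for the same 22 mice; right, limma log2 fold change ± SE of the 9 genes between AL mice at 15 and 5 months, from the 4 groups alone and with the region score added. The ratio of AL mice fell from a mean of 1.996 to 0.686, Nr3c2 is low where the region score is high, and the Nr3c2 estimate moves from -1.73 to -0.48 when the score is added.

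Nr3c2 moved with the region score also between mice of the same group. After subtraction of group means, its log2 level and the score had a Pearson r of -0.81 (permutation p = 0.00061) and a Spearman rho of -0.77 (p = 0.00087) over 22 libraries, and r was -0.72 without the 2 libraries farthest from the median score. Over the 54 relations of 9 genes and 6 scores, the adjusted values were 0.0286 for r and 0.0470 for rho. With the region score as a covariate, the age difference of Nr3c2 in AL mice was -0.48 (SE 0.26, limma adjusted p = 0.514) and the diet difference at 15 months 0.41 (adjusted p = 0.501). In that limma fit 0 of the 16978 genes passed the threshold for age in AL mice and 1896 had an unadjusted p under 0.05, so the score removed every call of this comparison. Age and the region score cannot be told apart in these AL groups, whose scores did not overlap.

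Hsd11b1 encodes the enzyme that regenerates active corticosterone inside cells. It lies on chromosome 1 from 193221634 to 193264075, on the minus strand. AL mice at 5 months had 19.5, 22.2, 24.2, 26.1 and 32.9 FPKM, and at 15 months the lowest was 4.34, the median 10.9 and the highest 14.1. The ages did not overlap in AL mice (log2 fold change -1.43, SE 0.38, limma adjusted p = 0.0121, exact permutation p = 0.00216). CR mice at 5 months had 12.1, 20.2, 20.5, 21.95 and 22.2 FPKM, and at 15 months they spread from 6.26 over a median of 18.8 to 47.3, the widest relative spread of the 9 genes in any group (coefficient of variation 64.1%). Of the CR mice at 15 months, 5 of 6 were above every AL mouse of that age and replicate 0 was again below the AL median. The log2 difference between the diets at 15 months was 1.03 (SE 0.36, limma adjusted p = 0.163, exact permutation p = 0.0606), and without replicate 0 it was 1.34 (adjusted p = 0.0251). Without CR 15 months replicate 2 it was 0.76, and over single libraries left out its limma adjusted p ran up to 0.352. With the region score as a covariate, the age difference of Hsd11b1 in AL mice was -0.70 (SE 0.60, limma adjusted p = 0.696) and the diet difference at 15 months 0.73 (adjusted p = 0.630).

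Hsd11b1 also had a positive r with markers of the dentate gyrus, the neighboring field of granule cells, which did not pass adjustment. Within groups its log2 level and the mean log2 level of 5 dentate markers had an r of 0.68 (permutation p = 0.00674, 0.118 adjusted over 54 relations) and a rho of 0.58 (p = 0.0175, adjusted 0.158), and r was 0.56 without the 2 farthest libraries. The same values were an r of 0.59 and a rho of 0.44 for Fkbp5 (adjusted permutation p = 0.205 and 0.366; r 0.36 without the 2) and an r of 0.58 and a rho of 0.39 for Nr3c2 (adjusted permutation p = 0.212 and 0.443; r 0.34 without the 2). Other scores gave relations of like size. Hsd11b1 and the choroid plexus score had an r of -0.37 and a rho of -0.53 (adjusted permutation p = 0.118 and 0.105, r -0.55 without the 2). Fkbp5 and the astrocyte score had an r of 0.53 and a rho of 0.62 (adjusted permutation p = 0.232 and 0.136, r 0.60 without the 2). The summed dentate markers ranged from 19.0 to 56.5 FPKM in AL and from 14.2 to 41.8 in CR mice at 5 months, and from 12.8 to 43.1 and from 11.8 to 114 at 15 months. Of the 5 markers, 1 fell and 0 rose with age in AL mice and 0 passed between the diets at 15 months in limma, with median log2 fold changes of -1.13 and 0.91, and 0 of the 5 were at 0 in all libraries of a group. Their part in these results was not tested.

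Fkbp5 encodes a co-chaperone that lowers the hormone affinity of the glucocorticoid receptor and is itself induced by that receptor. It lies on chromosome 17 from 28399094 to 28517527, on the minus strand. AL mice had 21.1, 21.6, 23.9, 25.0 and 25.7 FPKM at 5 months, and 9.58 (lowest), 13.7 (median) and 17.6 (highest) at 15 months, again with no overlap. This was a log2 fold change of -0.80 (SE 0.17, limma adjusted p = 0.00341, exact permutation p = 0.00649). In CR mice the 5 values at 5 months, from 18.3 to 22.7 FPKM, lay within the range of CR mice at 15 months, which had a lowest of 12.3, a median of 21.7 and a highest of 24.8 FPKM. At 15 months, 4 of 6 CR mice were above every AL mouse (log2 difference 0.53, SE 0.17, limma adjusted p = 0.121, exact permutation p = 0.0455), and without CR replicate 0 the difference was 0.66 (adjusted p = 0.0225). Without AL 15 months replicate 5 it was 0.43, and over single libraries left out its limma adjusted p ran up to 0.288. With the region score as a covariate, the diet difference at 15 months was 0.28 (SE 0.16, limma adjusted p = 0.630) and the age difference in AL mice -0.21 (SE 0.24, adjusted p = 0.777). At 5 months the sign was opposite, with all 5 CR mice under the AL median, at -0.19 (SE 0.18, limma adjusted p = 1.0, exact permutation p = 0.0476).

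Sgk1, Tsc22d3 and Zbtb16 are classical hormone-induced genes, and none of them passed the limma test in any comparison, with Sgk1 in AL mice the closest. Sgk1 encodes a kinase that regulates ion channels and transporters and is induced through both receptors. The window of 250 bases before to 50 bases after 1 of its 6 RefSeq starts (GRCm38.p6, chr10:21993640-21993939, plus strand) is shown because it holds a full palindromic glucocorticoid response element, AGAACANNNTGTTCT, marked in capitals, where N is any base:
Sgk1: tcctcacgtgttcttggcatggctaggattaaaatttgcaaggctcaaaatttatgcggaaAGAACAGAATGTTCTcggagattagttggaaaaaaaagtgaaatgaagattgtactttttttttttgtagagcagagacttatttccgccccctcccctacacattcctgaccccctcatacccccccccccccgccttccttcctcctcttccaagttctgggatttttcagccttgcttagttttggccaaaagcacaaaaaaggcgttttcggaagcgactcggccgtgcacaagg
This motif, searched on both strands, was in 3 of 32851 such windows of 27025 genes (0.00913%), and its first base lies 189 bases before that start. A match is a description of letters in the window and not a measured binding site. RefSeq windows were matched for 7 of the 9 genes, and those of the other 6 did not hold the full palindrome.

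Sgk1, on chromosome 10 from 21882184 to 21999903 (plus strand), had 35.8, 40.7, 43.7, 64.0 and 80.0 FPKM in AL mice at 5 months. At 15 months AL mice had a lowest of 20.9, a median of 28.8 and a highest of 55.9 FPKM, with 5 of 6 below every younger AL mouse. Its log2 fold change with age was -0.74 (SE 0.28, limma adjusted p = 0.0659, exact permutation p = 0.0411). CR mice had 31.1, 32.1, 38.6, 45.2 and 47.4 FPKM at 5 months, and a lowest of 16.4, a median of 28.7 and a highest of 58.7 at 15 months (log2 fold change -0.43, SE 0.28, limma adjusted p = 0.438). At 15 months the diets overlapped nearly completely, at -0.09 (SE 0.27). The age difference of Sgk1 in AL mice passed the threshold with libraries shifted to a common median (-0.78, limma adjusted p = 0.0459), without small RNA genes (-0.77, adjusted p = 0.0450) and with the replicate number as a block (-0.84, adjusted p = 0.0118). It was -0.33 (SE 0.26, limma adjusted p = 0.411) with the oligodendrocyte score as a covariate, -0.55 (adjusted p = 0.694) with the region score and -0.57 (adjusted p = 0.181) without AL 5 months replicate 4, and without single other libraries it reached -0.92 (adjusted p = 0.0227). Within groups Sgk1 and the oligodendrocyte score had an r of 0.60 (permutation p = 0.0125, 0.118 adjusted over 54 relations) and a rho of 0.44 (p = 0.0593, adjusted 0.320), and r was 0.56 without the 2 farthest libraries. The summed oligodendrocyte markers ranged from 1121 to 1750 FPKM in AL mice at 5 months and from 552 to 1199 at 15 months.

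Tsc22d3 encodes GILZ, a leucine zipper protein that carries part of the anti-inflammatory action of glucocorticoids. On chromosome X from 140539528 to 140600659 (minus strand), its level was 51.2 ± 17.0 FPKM in AL and 39.3 ± 8.08 in CR mice at 5 months (SD, n = 5 each). At 15 months the levels were 45.7 ± 15.5 and 39.7 ± 8.01 FPKM (SD, n = 6 each). Zbtb16 encodes the zinc finger repressor PLZF, on chromosome 9 from 48654297 to 48836222 (minus strand), with 19.8 ± 2.70 FPKM in AL and 19.1 ± 1.48 in CR mice at 5 months. At 15 months Zbtb16 had 16.6 ± 5.23 and 18.2 ± 5.31 FPKM. Both genes overlapped between groups in all comparisons, and their log2 fold changes ran from -0.34 to 0.15 with limma adjusted p of at least 0.275.

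**Figure D3:**
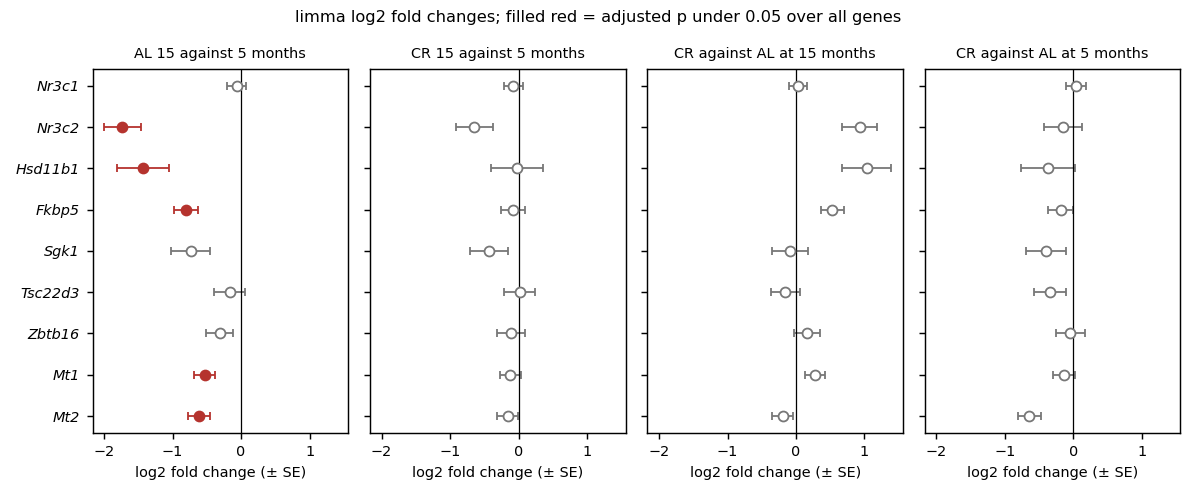
Log2 fold change ± SE (horizontal axis) of the 9 genes in each comparison of 2 groups, from the limma fit of all 22 libraries, with filled red points for an adjusted p under 0.05 over all genes tested. In AL mice 5 points are filled, all below 0 and from -1.73 to -0.53, and in the other 3 comparisons none is filled.

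Over the 9 genes, 5 fell and 0 rose with age in AL mice (20.6% of all genes tested were called in either direction), and the same 5 had no overlap between the ages (14.0% of all genes). Their median log2 fold change was -0.61, beside 0.00 over all genes, and all 9 estimates were below 0. In CR mice 0 of 9 were called between the ages (3.36% of all genes) and 0 of 9 did not overlap (3.26%). The median of the 9 was -0.11. Of them 1, Nr3c2, had an unadjusted p under 0.05, as did 3049 of the 16978 genes tested. Between the diets at 15 months 0 of 9 were called (0.742% of all genes) and 0 of 9 did not overlap (0.984%). Nr3c2, Hsd11b1 and Fkbp5 had an unadjusted p under 0.05 there, as did 2902 of the 16978 genes tested. At 5 months 0 of 9 were called between the diets by limma (0.0% of all genes, with 789 at an unadjusted p under 0.05), and Mt2 was the 1 gene that did not overlap (1.36%) and the 1 gene with an unadjusted p under 0.05. For the interaction of age and diet 0 of 9 were called by limma (0.0% of all genes, with 1301 at an unadjusted p under 0.05), and 3 of the 9 had an unadjusted p under 0.05. The estimates of these 3 were 1.09 for Nr3c2 (SE 0.38), 1.41 for Hsd11b1 (SE 0.54) and 0.72 for Fkbp5 (SE 0.25), with limma adjusted p of 0.608, 0.628 and 0.608 and exact permutation p of 0.0121, 0.0142 and 0.00819. The exact p of the interactions come from the same permutation of diet within age as for the receptor ratio, with the same null. An AL group enters the age comparison, the diet comparison and the interaction, so these values are not independent of each other.

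Mt1 and Mt2 encode the metallothioneins, small cysteine-rich proteins that bind zinc and copper, and were the most abundant of the 9 genes. They are neighbors on chromosome 8, with Mt2 from 94172664 to 94173568 and Mt1 from 94179082 to 94180327, both on the plus strand and 5513 bases apart. The windows around their RefSeq starts are shown because both hold matches to the same regulatory element. They lie on the plus strand of GRCm38.p6, for Mt2 at chr8:94172368-94172667 and for Mt1 at chr8:94178839-94179138. Capitals mark matches to the metal response element, TGCACNC or TGCGCNC, on either strand:
Mt1: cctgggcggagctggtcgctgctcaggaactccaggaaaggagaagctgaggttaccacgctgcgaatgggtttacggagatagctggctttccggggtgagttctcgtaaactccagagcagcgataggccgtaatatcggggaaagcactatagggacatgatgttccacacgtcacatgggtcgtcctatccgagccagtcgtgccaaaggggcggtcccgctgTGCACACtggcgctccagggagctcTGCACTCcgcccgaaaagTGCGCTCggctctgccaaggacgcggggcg
Mt2: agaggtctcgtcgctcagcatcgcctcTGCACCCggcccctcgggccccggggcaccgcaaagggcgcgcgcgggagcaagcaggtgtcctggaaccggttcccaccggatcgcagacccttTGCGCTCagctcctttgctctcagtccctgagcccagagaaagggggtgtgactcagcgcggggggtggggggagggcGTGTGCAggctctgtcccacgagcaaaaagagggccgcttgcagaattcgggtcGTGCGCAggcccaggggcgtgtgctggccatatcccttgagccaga
The Mt1 window holds 3 matches, all on the plus strand with first bases at positions -23, 3 and 21 from the start. The Mt2 window holds 4, on the plus strand at -223 and -128 and on the minus strand at -50 and 5. Matches outside these windows were not counted, so the numbers do not compare the genes as a whole. At least 3 matches were found in 1.97% of all 32851 windows and at least 4 in 0.517%, while TGCACNC alone was in 12.6% and TGCGCNC alone in 15.4%. Neither window holds the full glucocorticoid palindrome.

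In AL mice both genes fell with age. Mt1 had 386, 389.9, 418, 435 and 469 FPKM at 5 months and a lowest of 203, a median of 317 and a highest of 368 at 15 months. Mt2 had 258, 262, 272, 297 and 299.5 FPKM at 5 months and a lowest of 121, a median of 199 and a highest of 225 at 15 months. The ages did not overlap in AL mice for either gene. The log2 fold change was -0.53 for Mt1 (SE 0.15, limma adjusted p = 0.0166) and -0.61 for Mt2 (SE 0.16, adjusted p = 0.0108), and the exact permutation p were 0.00433 and 0.00649. With the region score as a covariate they were -0.12 and -0.31 (adjusted p = 0.879 and 0.677). Both calls were also lost with the choroid plexus score (adjusted p = 0.0743 for Mt1 and 0.0524 for Mt2) and with the oligodendrocyte score (0.0754 and 0.0501), and that of Mt1 after quantile normalization (-0.39, adjusted p = 0.0654).

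The diet groups differed more in Mt2 than in Mt1 at 5 months, and neither gene was called between the diets at either age. At 5 months the CR mice had 152, 169, 175, 193 and 199 FPKM of Mt2, all below every AL mouse, and the mean of CR mice differed from that of AL mice by -35.9%. The log2 difference was -0.65 (SE 0.17), with an exact permutation p of 0.00794, the smallest that 5 mice against 5 allow, and a limma unadjusted p of 0.000931 that became 0.824 over all genes. Mt1 in the same CR mice was 319.9, 379.8, 386, 407 and 422 FPKM and overlapped with AL mice (log2 difference -0.13, SE 0.16, limma adjusted p = 1.0). At 15 months Mt1 estimates were higher in CR mice, at 0.28 (SE 0.14, limma adjusted p = 0.326), and Mt2 estimates lower, at -0.19 (SE 0.15, adjusted p = 0.535). CR mice at 15 months had a lowest of 132, a median of 144 and a highest of 246 FPKM of Mt2, and a lowest of 283, a median of 334 and a highest of 510 FPKM of Mt1.

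The ratio of Mt2 to Mt1 FPKM separated the diets without overlap at both ages. This ratio was examined after the values of both genes were seen. In AL mice it ran from 0.593 to 0.710 over 11 libraries, and in CR mice from 0.404 to 0.501 over 11 libraries. The means were 0.663 ± 0.0476 in AL and 0.465 ± 0.0273 in CR mice at 5 months (SD, n = 5 each), and 0.626 ± 0.0264 and 0.452 ± 0.0291 at 15 months (SD, n = 6 each). The log2 ratio was lower in CR mice by 0.51 (-0.51, SE of the difference 0.06, exact two-sided permutation p = 0.00794) at 5 months and by 0.47 (-0.47, SE 0.05, exact p = 0.00216) at 15 months, each p being the smallest these numbers of mice allow. Adjusted over the 4 comparisons of groups they were 0.0159 and 0.00866. Between the ages the log2 ratio differed by -0.08 in AL mice (exact p = 0.139) and by -0.04 in CR mice (exact p = 0.478), and the interaction was 0.04 (permutation of diet within age, p = 0.871). The null of that last permutation is no diet difference at either age, so its p does not measure the interaction alone.

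**Figure D4:**
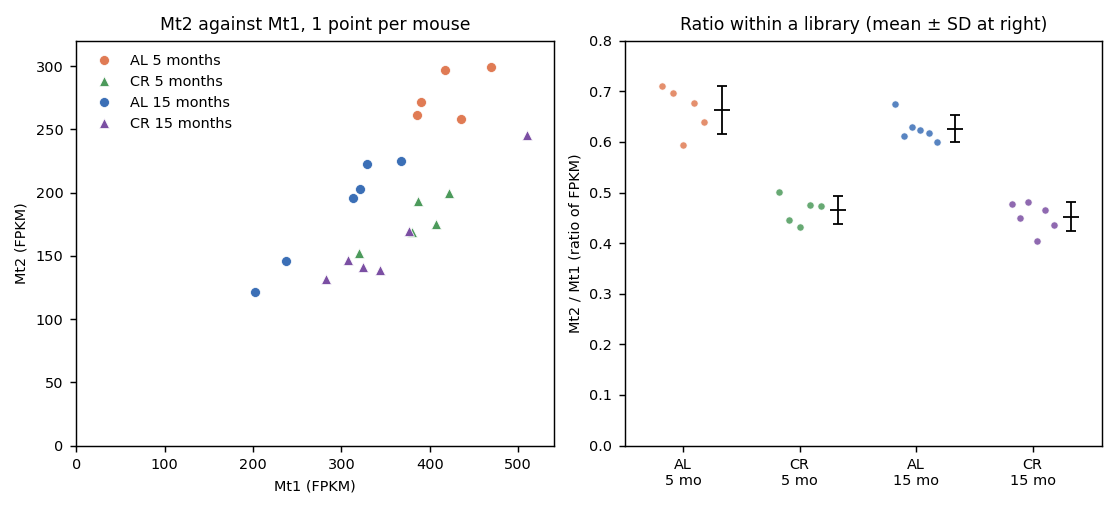
Left, Mt2 against Mt1 (both in FPKM), 1 point per mouse, with circles for AL and triangles for CR mice; right, the ratio of Mt2 to Mt1 FPKM in each library with mean ± SD per group. The 11 CR ratios, from 0.404 to 0.501, lie below the 11 AL ratios, from 0.593 to 0.710, at both ages.

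Among the other 16977 genes tested, a log2 ratio to Mt1 that was lower in every CR than in every AL library within both ages occurred in 2 (0.0118%), Mt2 and Gbp11, the latter at a mean of 0.608 FPKM. This count is not a test of the Mt2 ratio, because the pattern was taken from Mt2. Within groups, Mt2 also had the highest r with Mt1 (0.95) among genes with a mean of at least 1 FPKM. Mt3, the brain-specific metallothionein on the same chromosome (94152607 to 94154146), served as another reference. The ratio of Mt3 to Mt1 was 0.971 ± 0.0998 in AL and 1.03 ± 0.0914 in CR mice at 5 months, and 0.965 ± 0.110 and 0.950 ± 0.117 at 15 months. These Mt3 ratios overlapped between the diets (log2 differences 0.09 and -0.02, exact p = 0.317 and 0.794). The log2 ratio of Mt2 to Mt3 was lower in CR mice at 5 months (-0.60, exact p = 0.00794) and at 15 months (-0.45, exact p = 0.00433). At 15 months the Mt2 to Mt3 ratios overlapped between the diets, with a lowest AL value of 0.568 and a highest CR value of 0.577. The ratios to Mt1 and to Mt3 use the same Mt2 values, so these p are not independent of those for Mt2 to Mt1.

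An antisense gene of the reference annotation, Gm45774 (chromosome 8, 94170748 to 94173412, minus strand), spans Mt2. Of 554 windows of 50 bases in Mt2 transcripts, 254 (45.8%) also lie in Gm45774 transcripts, against 0 of 1292 for Mt1. The library kit does not mark strand, so reads from the shared stretches cannot be assigned to Mt2 or to Gm45774, and the part of Gm45774 in the ratio was not tested. Dates and lanes of library preparation are not given in the sources used here, so a difference in preparation between diets cannot be told apart from diet.

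Mt1 and Mt2 still varied together between mice of the same group. After subtraction of group means, the Pearson r of their log2 levels was 0.95 and the Spearman rho 0.93 over 22 libraries (adjusted permutation p = 0.00072 for both, over 36 pairs), and r was 0.90 without the 2 libraries farthest from the median. Each was the other's closest match among 13838 genes with a mean of at least 1 FPKM, followed for both by Metrn and Cd81. Mt1 also moved with the astrocyte marker score, at an r of 0.76 (adjusted permutation p = 0.0286 over 54 relations) and a rho of 0.59 (adjusted p = 0.136), but r was 0.56 without the 2 farthest libraries. The summed astrocyte markers ranged from 915 to 1070 FPKM in AL and from 879 to 1020 in CR mice at 5 months, and from 859.7 to 1068 and from 878 to 1335 at 15 months. With the astrocyte score as a covariate, the Mt2 difference between the diets at 5 months was -0.50 (SE 0.13, limma adjusted p = 0.623).

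Of the 36 pairs among the 9 genes, 2 passed an adjusted p under 0.05 for r. The second pair was Nr3c2 and Fkbp5, with an r of 0.79 (permutation p = 0.00126, adjusted 0.0227) and a rho of 0.70 (p = 0.00516, adjusted 0.0929). Without the 2 libraries farthest from the median of Nr3c2 the r was 0.68, and with the region score removed it was 0.67. Sgk1 and Tsc22d3 had an r of 0.63 (adjusted permutation p = 0.0514), and Tsc22d3 and Zbtb16 an r of 0.60 (adjusted permutation p = 0.0734). Nr3c1 had a negative r with Mt2, at -0.54, the lowest of the 36 pairs, of which 29 were positive.

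**Figure D5:**
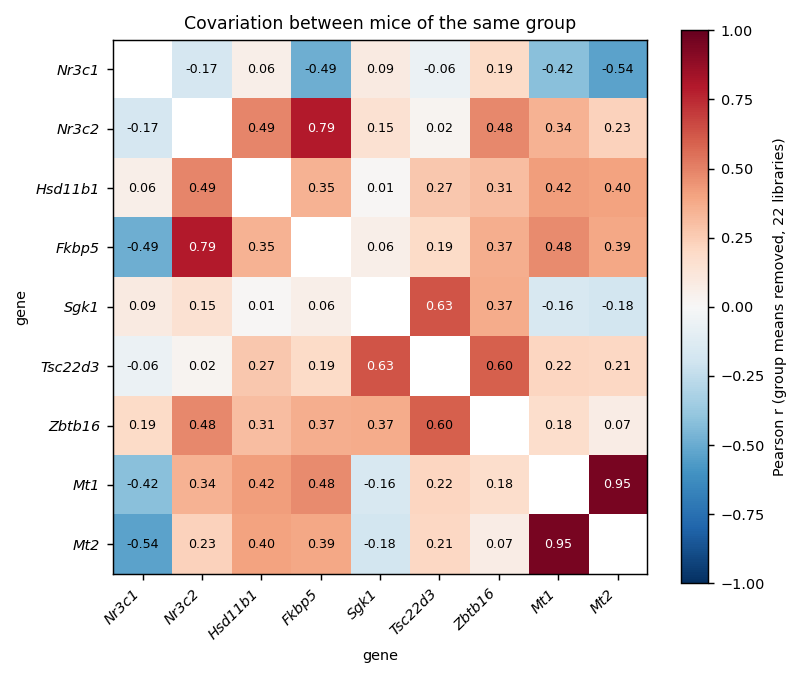
Pearson r of log2(FPKM + 0.1) between each pair of the 9 genes over 22 libraries, after subtraction of group means, on a color scale from -1 to 1. The darkest red cell is Mt1 with Mt2 at 0.95, followed by Nr3c2 with Fkbp5 at 0.79, and 29 of 36 pairs are above 0.

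The genes most like each member between mice of a group are given with the same r over 22 libraries. For Nr3c1 they were Socs5 (0.87) and Frmd6 (0.87), and for Nr3c2 they were Wipf3 (0.94), Dnahc9 (0.93) and Sipa1l3 (0.93). For Hsd11b1 they were C030018K13Rik (0.83), Tmem144 (0.83) and Emc8 (0.80), and for Fkbp5 they were Pkp2 (0.91), 2310008H04Rik (0.89) and Sec14l2 (0.85). For Sgk1 the values were lower, with D7Ertd443e (0.78), Adipor2 (0.77) and Fam83d (0.76). Tsc22d3 was closest to Tyw1 (0.85), Rrp8 (0.82) and Klf15 (0.81), and Zbtb16 to Fbn2 (0.88), Gpr161 (0.83) and Hs6st3 (0.83).

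Among 25 other genes known to respond to glucocorticoids, 6 fell and 2 rose with age in AL mice, or 8 of 25 beside 20.6% of all genes, with a median log2 fold change of -0.03. The 4 with the smallest p were Rhob, a small GTPase, at -0.59 (SE 0.09, limma adjusted p = 0.000442), the transcriptional repressor Bcl6 at -1.13 (SE 0.19, adjusted p = 0.000602), the EGF receptor inhibitor Errfi1 at -0.68 (SE 0.11, adjusted p = 0.00068) and the mTOR inhibitor Ddit4 at -0.63 (SE 0.12, adjusted p = 0.00131). Bcl6 was the 1 gene of the 25 called in CR against AL mice at 15 months, where it rose, beside 0.742% of all genes. It had a lowest of 19.7, a median of 21.5 and a highest of 26.2 FPKM in AL mice at 5 months, 6.87, 10.6 and 14.1 in AL mice at 15 months, and 13.7, 19.3 and 33.8 in CR mice at 15 months. The diets at 15 months overlapped only through the lowest CR mouse, replicate 0, and the log2 difference was 0.95 (SE 0.18, limma adjusted p = 0.0272, exact permutation p = 0.00433). It was 0.61 (adjusted p = 0.184) with the region score as a covariate, 0.95 (SE 0.22, adjusted p = 0.180) in a fit of only the 2 groups compared, and the adjusted p reached 0.0525, 0.0638 and 0.0537 without AL replicate 0, AL replicate 4 and CR replicate 1 of that age. At 5 months 0 of the 25 passed between the diets in limma, beside 0.0% of all genes (1 of the 25 had an unadjusted p under 0.05). In CR mice 1 of the 25, Rhob, fell with age (-0.35, SE 0.09, limma adjusted p = 0.0357), beside 3.36% of all genes called. The Rhob call was lost without any 1 of 7 libraries (adjusted p of 0.0627 to 0.0923) and with the region score (-0.097, adjusted p = 0.612). It was also lost after quantile normalization (adjusted p = 0.0739), in a fit of only the 2 groups (0.139), with the replicate block (0.0541) and with the choroid plexus (0.553) or endothelium (0.104) score, at log2 fold changes of -0.42 to -0.31.

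The proteins that hold and fold the receptors before hormone binds were represented by 15 genes, of which 2 fell and 0 rose with age in AL mice, beside 20.6% of all genes called. These were Ppid, a co-chaperone of the same kind as Fkbp5, at -0.30 (SE 0.08, limma adjusted p = 0.0099), and the HSP90 activator Ahsa1 at -0.28 (SE 0.09, adjusted p = 0.0292). In CR against AL mice 0 of 15 passed in limma at either age, beside 0.742% of all genes at 15 months and 0.0% at 5 months. An unadjusted p under 0.05 was found for 9 at 15 months and 2 at 5 months, beside 2902 and 789 of all 16978 genes tested. Of the 15 estimates, 13 at 15 months and 14 at 5 months were above 0, with medians of 0.22 and 0.12. The smallest p at 5 months belonged to the HSP40 gene Dnajb1, which had 23.4 to 27.6 FPKM in AL and 32.2 to 40.8 in CR mice with no overlap (log2 difference 0.43, SE 0.11, limma adjusted p = 0.824, exact permutation p = 0.00794).

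The shares of all genes called also stand beside the counts that follow, here and for zinc handling. They were 20.6% and 3.36% for age in AL and CR mice, and 0.742% and 0.0% between the diets at 15 and 5 months. Of 15 receptor coregulators, 3 were called, as Nono (-0.27) and Ncoa1 (-0.30) fell and Crebbp (0.37) rose with age in AL mice (limma adjusted p = 0.0113, 0.0357 and 0.0493), and 0 passed in the other comparisons (2, 0 and 1 at an unadjusted p under 0.05 for diet at 15 months, diet at 5 months and age in CR mice). Of 14 genes of steroid supply and transport, 7 were above the level filter, and 1 of them, Abcb1b, which encodes an efflux transporter of steroids, rose with age in AL mice at 0.84 (SE 0.27, adjusted p = 0.0335). Its relative Abcb1a was higher in every CR mouse at 15 than at 5 months at 0.45 (SE 0.13) with an adjusted p of 0.0590. Among 11 tested relatives of the 9 genes, 4 fell in AL mice, namely Fkbp1a (-0.69), Zbtb20 (-1.88), Mt3 (-0.54) and Fkbp8 (-0.26), with limma adjusted p of 0.00334, 0.00528, 0.0257 and 0.0496.

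Zinc handling was represented by 11 genes, of which 1, the importer gene Slc39a10, rose with age in AL mice (0.57, SE 0.17, limma adjusted p = 0.0244). Between the diets 0 of 11 passed in limma at either age, and the 1 gene with an unadjusted p under 0.05 at both ages was Slc30a1, the zinc exporter gene that is induced by metals through the same element as the metallothioneins. Its levels were 8.83, 9.30, 10.8, 11.5 and 11.6 FPKM in AL and 6.76, 6.91, 7.35, 8.87 and 9.65 in CR mice at 5 months. At 15 months AL mice had a lowest of 8.40, a median of 10.8 and a highest of 13.4, and CR mice a lowest of 6.91, a median of 7.65 and a highest of 10.04 FPKM. The diets overlapped at both ages, and the log2 differences were -0.40 (SE 0.13, limma adjusted p = 0.960, exact permutation p = 0.0397) at 5 months and -0.42 (SE 0.12, adjusted p = 0.0977, exact permutation p = 0.0130) at 15 months. At 15 months it was -0.48 (adjusted p = 0.0324) without CR replicate 0 and -0.27 (adjusted p = 0.528) with the region score. Slc30a1 did not pass between the ages in either diet (0.06 and 0.04).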

How the data were processed

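mRNA of the hippocampal CA1 region was sequenced from 22 mice, 1 library each. The authors aligned reads to mm10 with TopHat, removed PCR duplicates with Picard and estimated the deposited FPKM values with Cufflinks, correcting for fragment bias and multiply mapped reads; a gene annotation release is not given in the sources used here. Groups followed the diet and age in the labels. The log2(FPKM + 0.1) of the 16978 genes averaging 0.1 FPKM or more was fitted over the 4 groups with limma 3.58.1 (eBayes with trend) in R 4.3.3, and genes with an adjusted p (Benjamini-Hochberg over all genes tested, two-sided) under 0.05 were called. The study itself tested reads with Cuffdiff, and reads were not used here. Log2 fold changes are differences of fitted group means on this scale. Single values were compared by exact two-sided permutation of group means, and correlations by 100000 shuffles of mice within groups, with Python 3.11.15, numpy 2.4.6, scipy 1.17.1 and pandas 2.3.3; figures used matplotlib 3.10.9. Scores are mean log2 levels of marker lists. The 9 genes and the lists were chosen with earlier results of these data known, and in each list the called genes (at most the 4 with the smallest p per comparison, or else the 1 gene with the smallest p) are named; for each of the 9 genes the 3 genes with the highest r are named, apart from 1 that is not reported here. Alternatives were other pseudocounts (1 and 0.01), other filters on low values, other scalings, fits of the compared groups alone, a replicate block, 6 score covariates and each library left out; the ratio of Mt2 to Mt1, its alternatives and the removal of the region score from ratios were added after seeing the data. Coordinates are from GENCODE on GRCm38 and sequences from RefSeq on GRCm38.p6. The depth of the libraries is unknown from FPKM, so no counting error is given. The scripts were tested on simulated data. NanoString measurements were not analyzed here.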

Additional observations from a re-analysis of the deposited data

Results flagged for a closer look

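Of 44 groups of values examined for a single mouse far from the rest, 4 had one, where chance gives about 1 in 20. Hsd11b1 in CR 5 months replicate 3 was 12.1 FPKM, with the next lowest of that group at 20.2. Sgk1 was 55.9 FPKM in AL 15 months replicate 3, with the next highest at 32.2, and 58.7 FPKM in CR 15 months replicate 5, with the next highest at 30.7. Without the former mouse the age difference of Sgk1 in AL mice was -0.92 (limma adjusted p = 0.0227) and without the latter -0.74 (adjusted p = 0.0348). Mt2 in CR 15 months replicate 2 was 246 FPKM, with the next highest at 169, and its Mt1 was the highest of all 22 libraries, at 510 FPKM. The estimated diet difference of the log2 ratio of Nr3c2 to Nr3c1 was -0.20 at 5 months and 0.91 at 15 months, an interaction of 1.10. An exact permutation of diet within age, whose null is no diet difference at either age, gave an unadjusted p = 0.0250.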

How the results depend on the processing

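The count of 5 genes that fell in AL mice was 4 to 6 under the other pseudocounts, filters and scalings and when each library was left out, but 3 with the choroid plexus or the oligodendrocyte score as a covariate and 0 with the region score. Over all 16978 genes tested, these covariate fits called 1930, 3070 and 0 in that order, beside 3502 without a covariate. Choroid plexus markers summed to 4.55 to 37.1 FPKM in AL mice at 5 months and 0.898 to 6.67 at 15 months, and oligodendrocyte markers to 1121 to 1750 and 552 to 1199. Leaving out each library gave 0 to 3 genes called between the diets at 15 months, with 3 without CR replicate 0 and 1 without replicate 5. Over all 16978 genes tested, 732 and 492 were called in these fits, beside 126 with all libraries. The numbers in the library names did not pair mice (over 31 pairs r was -0.139 to 0.163, above 0.1 in 2). With a replicate block 6 genes were called in AL mice, Sgk1 among them (-0.84, limma adjusted p = 0.0118), and 0 in the other comparisons. Over all genes tested, the block fit called 3754 and 617 for age in AL and CR mice. Between the diets it called 323 at 15 months and 0 at 5 months.

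With the region score removed, the log2 ratio of Nr3c2 to Nr3c1 differed between the ages by -0.40 in AL mice (exact p = 0.0779) and by 0.23 in CR mice, and that of Mt2 to Mt1 by -0.19 (exact p = 0.00866) and -0.11 (exact p = 0.0455); the cause was not tested. The diet differences of the Mt2 to Mt1 ratio were -0.49 to -0.44 at 15 months and -0.55 to -0.48 at 5 months without single libraries, and its age difference in AL mice was -0.12 to -0.055. Without single libraries, the log2 ratio of Nr3c2 to Nr3c1 differed between the diets by 0.73 to 1.12 at 15 months and by -0.30 to -0.14 at 5 months. Over all 15 alternatives, which include other pseudocounts and the removal of the region score, the difference at 15 months was as low as 0.38. The exact permutation p there ran up to 0.242.

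Directions turned for uncalled differences. With the region score, CR mice at 15 against 5 months gave 0.14 for Nr3c2, 0.43 for Hsd11b1, 0.28 for Fkbp5, 0.28 for Zbtb16, 0.14 for Mt1 and 0.025 for Mt2, and Zbtb16 gave 0.32 for age in AL mice, -0.11 for diet at 15 months and -0.036 for the interaction. With the oligodendrocyte score, Nr3c1 and Tsc22d3 gave 0.052 and 0.046 for age in AL mice, Zbtb16 0.055 for diet at 5 months and Hsd11b1 0.044 for age in CR mice (0.018 with the immediate early gene score). With the astrocyte score, Nr3c1 gave -0.020 for diet at 5 months and 0.0091 for age in CR mice, and Mt1 0.0094 for diet at 5 months. Tsc22d3 for age in CR mice was -0.028 with the replicate block and -0.13, -0.070 and -0.095 with the choroid plexus, endothelium and astrocyte scores. The interaction of Nr3c1 was 0.027 at a common median, 0.0099, 0.069 and 0.068 with the endothelium, astrocyte and immediate early gene scores, and 0.014 without small RNA genes. Without single libraries, Nr3c1 ran from -0.17 to 0.0078 (age in AL mice), -0.049 to 0.13 and -0.031 to 0.10 (diet at 15 and 5 months) and -0.088 to 0.090 (interaction), Sgk1 from -0.30 to 0.087 (diet at 15 months), Zbtb16 from -0.12 to 0.015 (diet at 5 months), and for age in CR mice Hsd11b1 from -0.29 to 0.29, Fkbp5 from -0.16 to 0.047 and Tsc22d3 from -0.073 to 0.11.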
